A study of Mus musculus with 6 samples.

Results

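The mRNA levels of Foxa2 and of its paralogs Foxa1 and Foxa3 were examined in primary hepatocytes of CCl4-treated FOXA2f/f and FOXA2H-KO mice, to measure how much Foxa2 mRNA remained after the knockout and whether either paralog differed between the groups. The 3 genes were taken by symbol from the 34745 genes of the expression tables, each symbol matched 1 Ensembl gene, and all 3 passed the filter on low counts that left 14417 genes for testing. All mice were 12-week-old males carrying loxP-flanked FOXA2 alleles, and they received the viruses through the tail vein 2 weeks before the first CCl4 injection. The FOXA2f/f group was given AAV8-TBG-Control and the FOXA2H-KO group AAV8-TBG-Cre, in which the TBG promoter restricts Cre to hepatocytes. CCl4, a hepatotoxin whose repeated injection causes liver fibrosis, was injected 2 times per week for 4 weeks at 0.25 ml/kg into both groups, and hepatocytes were collected on the third day after the last dose by collagenase perfusion and low-speed centrifugation. Each group had 3 paired-end poly(A) RNA libraries, numbered 1, 2 and 4 in the labels. No group without CCl4 was analysed here, so the values describe fibrotic livers in both arms. The labels do not say that the libraries of a group came from separate mice, and p-values measure the spread between these libraries.

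FOXA1, FOXA2 and FOXA3 are the forkhead box A proteins, once named HNF3-alpha, HNF3-beta and HNF3-gamma after their purification as hepatocyte nuclear factors. They bind DNA as monomers through a winged-helix forkhead domain that resembles linker histone, and they can engage their sites in compacted chromatin and open it for other factors, for which they are called pioneer factors. FOXA1 and FOXA2 together are needed to specify the liver from foregut endoderm, FOXA2 in adult hepatocytes is known for its part in fasting metabolism and bile acid homeostasis, and FOXA3 is known for its part in glucose homeostasis during fasting. The 3 proteins recognise very similar sites, and in many settings 1 can stand in for another.

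The genes lie on 3 chromosomes of the mouse genome (GRCm38, GENCODE M21), all on the minus strand. Foxa2 (ENSMUSG00000037025) spans chr2:148042877-148046969, Foxa1 (ENSMUSG00000035451) spans chr12:57540628-57546916 and Foxa3 (ENSMUSG00000040891) spans chr7:19013284-19023538. No annotated gene overlaps any of them. Because reads of close paralogs can be assigned to the wrong gene, the coding sequences were compared. The 270 coding bases most alike among the 3 genes matched at 89.3% of positions between Foxa1 and Foxa2, at 84.8% between Foxa1 and Foxa3 and at 83.7% between Foxa2 and Foxa3. The 90 bases with the fewest differences within that stretch are shown 5′ to 3′ in coding orientation, where capitals mark the positions that are not the same in all 3 genes. They come from chr2:148044273-148044362 for Foxa2, chr12:57542779-57542868 for Foxa1 and chr7:19014699-19014788 for Foxa3, and lie in coding exons.
Foxa2: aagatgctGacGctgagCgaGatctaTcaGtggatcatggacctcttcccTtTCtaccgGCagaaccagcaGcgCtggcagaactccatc
Foxa1: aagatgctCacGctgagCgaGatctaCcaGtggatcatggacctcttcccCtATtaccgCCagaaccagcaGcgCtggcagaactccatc
Foxa3: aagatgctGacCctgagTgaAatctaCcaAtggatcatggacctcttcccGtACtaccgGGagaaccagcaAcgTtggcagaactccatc
In this most conserved stretch 77 of 90 bases were the same in all 3 genes. Over the whole transcripts, the longest run shared exactly was 38 bases for Foxa1 and Foxa2 and 20 bases for each pair with Foxa3.

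Total counts were between 20983455 and 28327765 per library. All marker sums here and below are FPKM rescaled to library sizes adjusted by the trimmed mean of M-values (TMM). Summed hepatocyte markers (10 genes, among them Alb and Apoa1) were between 46201 and 63966 FPKM in FOXA2f/f and between 43815 and 57360 FPKM in FOXA2H-KO, and markers of other liver cells were present in every library. Cholangiocyte markers (14 genes, led by Spp1 and Krt23) summed to between 44.1 and 77.8 FPKM in FOXA2f/f and between 55.6 and 146 FPKM in FOXA2H-KO. Stellate cell and fibroblast markers (14 genes, led by Dcn and Col3a1) summed to between 194 and 555 and between 341 and 464 FPKM, macrophage markers (12 genes, led by Lyz2 and Cd5l) to between 363 and 1644 and between 815 and 1331 FPKM, endothelial markers (12 genes, led by Oit3 and Cdh5) to between 48.1 and 171 and between 86.2 and 111 FPKM, and lymphocyte and neutrophil markers (12 genes, led by S100a9 and S100a8) to between 4.32 and 66.4 and between 7.24 and 14.6 FPKM. No gene of these 6 lists was at 0 in all libraries. In such bulk RNA, fewer cells of a type and less RNA per cell cannot be told apart.

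Foxa2 mRNA was almost lost from the FOXA2H-KO libraries. Raw counts of Foxa2 were 442, 246 and 516 in FOXA2f/f replicates 1, 2 and 4, against 28, 19 and 35 in FOXA2H-KO replicates 1, 2 and 4. As CPM, counts per 1000000 counts of a library whose size was scaled by the trimmed mean of M-values (TMM), these were 19.0, 13.5 and 16.4 in FOXA2f/f and 1.03, 0.762 and 1.62 in FOXA2H-KO. The groups did not overlap, which was so for 10.5% of all genes tested, and the lowest FOXA2f/f library (replicate 2) was far above the highest FOXA2H-KO library (replicate 4). The group means were 16.3 ± 2.75 CPM and 1.14 ± 0.438 CPM (SD, n = 3 each), so that 6.98% of the FOXA2f/f level remained. The log2 fold change was -3.85 (SE 0.31, 95% interval -4.56 to -3.14), which is 14.4-fold lower with an interval of 8.80-fold to 23.6-fold (edgeR quasi-likelihood test, adjusted p = 0.0313). Foxa2 was the 1 gene called at an adjusted p under 0.05 and a fold change of at least 2, a background of 0.00694% of all genes tested. An exact two-sided permutation test of its log2 CPM gave p = 0.1, the smallest that 3 libraries against 3 allow. The size of the loss was stable and its adjusted p was not. Leaving out any 1 library gave log2 fold changes between -4.17 and -3.63, but only without FOXA2f/f replicate 2 did Foxa2 pass the threshold (adjusted p = 0.034), and the adjusted p (edgeR) without FOXA2f/f replicate 1 or 4 or FOXA2H-KO replicate 1, 2 or 4 was 0.323, 0.0653, 0.499, 0.186 and 0.0624 in that order.

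**Figure D1:**
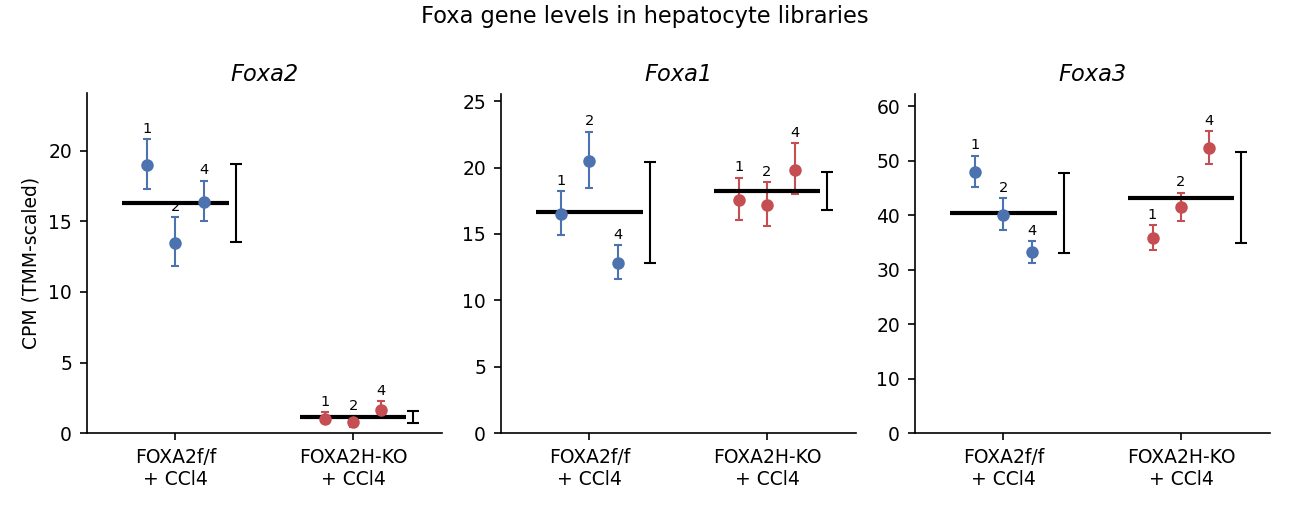
TMM-scaled CPM of Foxa2, Foxa1 and Foxa3 (y axes from 0) in each library of FOXA2f/f (blue) and FOXA2H-KO (red) mice given CCl4. Points are libraries with their replicate number and 95% Poisson interval for counting error only, horizontal lines are group means and black bars ± 1 SD over 3 libraries. The Foxa2 groups are separate, at 13.5 to 19.0 against 0.762 to 1.62 CPM, and the groups of both paralogs overlap.

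The remaining Foxa2 signal was small but countable. Exact Poisson intervals (95%), which cover counting error only, put the FOXA2H-KO counts at 18.6 to 40.5 in replicate 1, 11.4 to 29.7 in replicate 2 and 24.4 to 48.7 in replicate 4. Every interval lay above 3 counts, a floor set at about the 1-sided 95% limit of a count of 0. Among genes with at least 1 count, Foxa2 fell from percentiles between 67.2 and 75.4 in FOXA2f/f libraries to percentiles between 28.0 and 34.5 in FOXA2H-KO libraries. Counts were made per gene and the exon flanked by loxP is not given in the sources used here, so transcripts of recombined and of intact alleles were counted together. In FOXA2H-KO replicates 1, 2 and 4 the cholangiocyte markers summed to 146, 55.6 and 118 FPKM, of which Spp1 alone held 128, 44.9 and 107 FPKM and the other 13 genes 17.7, 10.7 and 11.8 FPKM. Of the 12 genes of that list tested by edgeR, 10 had a log2 fold change above 0 and 2 below, and 0 were called. Their median was 0.50 against -0.01 over all genes. Prom1, 1 of the 2 below 0, had a log2 fold change of -1.80 (SE 0.40, edgeR adjusted p = 0.579). DESeq2 called Prom1 alone among 14 genes of the list, against 0.333% of all genes it tested. Stellate cell and fibroblast markers summed to 464, 376 and 341 FPKM and endothelial markers to 86.2, 109 and 111 FPKM in the same libraries. The Foxa2 level was lowest in replicate 2, where the cholangiocyte sum was also lowest with or without Spp1. Foxa2 was highest in replicate 4, whereas the cholangiocyte sum was highest in replicate 1, again with or without Spp1. The part of cells other than hepatocytes in the remaining Foxa2 was not tested.

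Foxa1, the paralog closest to Foxa2 in coding sequence, did not pass the test. Raw counts were 384, 374 and 404 in FOXA2f/f replicates 1, 2 and 4 and 478, 429 and 429 in FOXA2H-KO replicates 1, 2 and 4. The corresponding TMM-scaled levels were 16.5, 20.5 and 12.8 CPM in FOXA2f/f and 17.6, 17.2 and 19.8 CPM in FOXA2H-KO. All 3 FOXA2H-KO libraries fell within the range of the FOXA2f/f libraries, whose highest was replicate 2 and lowest replicate 4. The group means were 16.6 ± 3.83 CPM and 18.2 ± 1.43 CPM (SD, n = 3 each). The log2 fold change was 0.13 (SE 0.19, 95% interval -0.31 to 0.58, edgeR adjusted p = 0.983), and the exact permutation test gave p = 0.5. In linear terms the interval ran from 0.806-fold to 1.50-fold, so a rise of up to 49.6% or a fall of up to 19.4% lay inside it.

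Foxa3, a factor known to be prominent in the adult liver, did not pass the test either. Its raw counts were 1117, 731 and 1044 in FOXA2f/f replicates 1, 2 and 4 and 973, 1035 and 1131 in FOXA2H-KO replicates 1, 2 and 4. After TMM scaling they were 48.0, 40.1 and 33.2 CPM in FOXA2f/f and 35.8, 41.5 and 52.3 CPM in FOXA2H-KO. The groups overlapped, although the highest library of all was FOXA2H-KO replicate 4 and the lowest FOXA2f/f replicate 4. The means were 40.4 ± 7.40 CPM and 43.2 ± 8.39 CPM (SD, n = 3 each). The log2 fold change was 0.10 (SE 0.19, 95% interval -0.35 to 0.54, edgeR adjusted p = 0.991) and the exact permutation p was 0.7. The interval in linear terms was 0.785-fold to 1.46-fold. The sign of neither paralog was stable when libraries were left out: without FOXA2f/f replicate 4 the log2 fold changes were -0.022 for Foxa1 and -0.029 for Foxa3, and without FOXA2H-KO replicate 4 that of Foxa3 was -0.056.

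**Figure D2:**
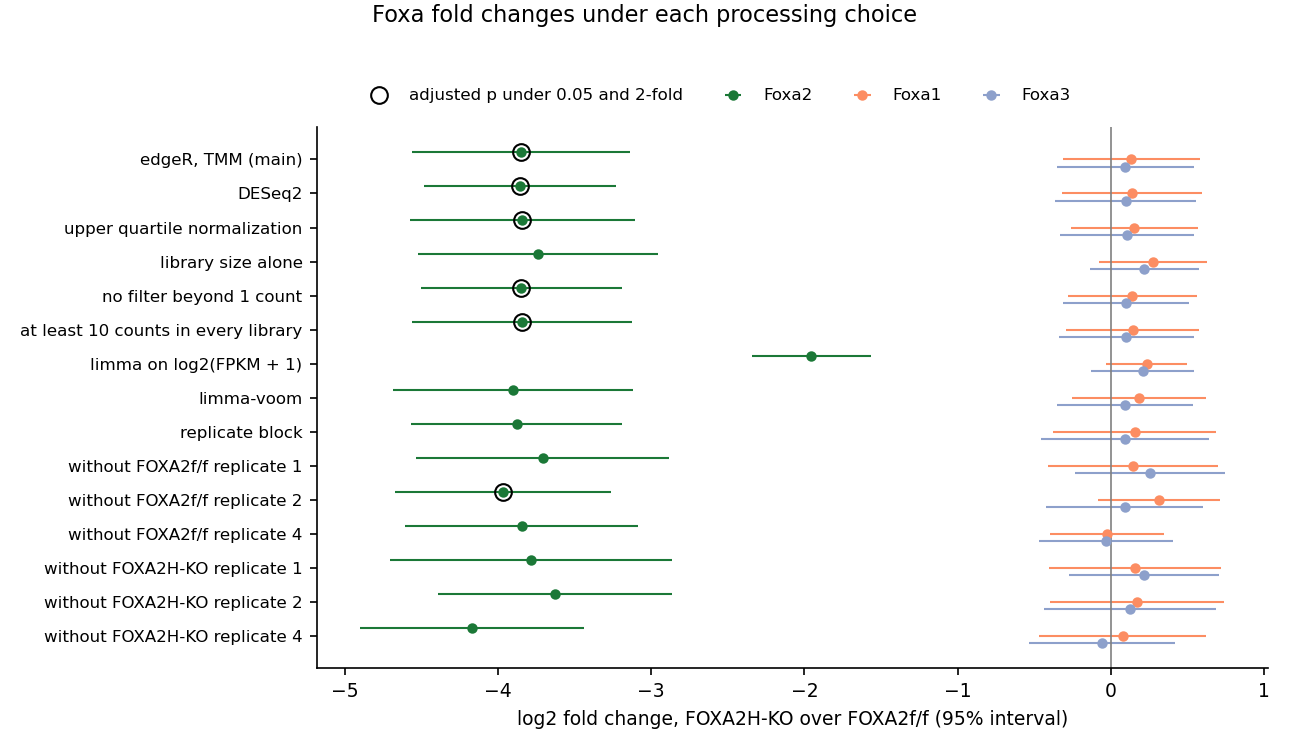
Log2 fold changes (x axis, FOXA2H-KO over FOXA2f/f) of Foxa2 (green), Foxa1 (orange) and Foxa3 (blue) with 95% intervals, for each processing choice on the y axis. Black rings mark values with an adjusted p under 0.05 and at least 2-fold. Every Foxa2 interval lies below 0, with the limma value of -1.95 on log2(FPKM + 1) the least negative, and every interval of Foxa1 and Foxa3 includes 0.

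A paralog difference also depended on what the libraries were scaled to. Over all tested genes the median log2 fold change was -0.01 with TMM and 0.10 with library size alone, which gave log2 fold changes of 0.27 for Foxa1 and 0.22 for Foxa3. The Foxa counts were also set against the summed counts of the 10 hepatocyte markers, an alternative chosen after the data were seen. Alb held most of this sum, with 7716736 counts in FOXA2f/f and 7309607 in FOXA2H-KO. Apoa1, the next, had 458299 and 430611. Alb is also on the list of FOXA-regulated genes below. With these marker counts in place of the total count, the CPM of Foxa1 stood at 115, 131 and 113 in FOXA2f/f and at 165, 131 and 141 in FOXA2H-KO replicates 1, 2 and 4. On this scale the groups of Foxa1 did not overlap, by a margin between 130.6 in FOXA2f/f replicate 2 and 130.7 in FOXA2H-KO replicate 2. The FOXA2H-KO mean of Foxa1 was 122% of the FOXA2f/f mean. The share of all genes without overlap on this scale was not computed, so this separation cannot be set against a background. The CPM of Foxa3 stood at 333, 255 and 293 in FOXA2f/f and at 335, 315 and 371 in FOXA2H-KO, with a mean of 116% and with overlap between the groups. Foxa2 remained at 7.42% on the same scale. All 10 hepatocyte markers were tested and 0 were called by edgeR or DESeq2, against 0.00694% and 0.333% of all genes. An unadjusted p under 0.05 (edgeR) was found for 1 of them, against 5.17% of all genes. Their log2 fold changes were below 0 for 9 and above 0 for 1, with a median of -0.12 against -0.01 over all genes.

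Levels of the 3 genes can be compared with each other only per transcript length. In the deposited FPKM (fragments per kilobase of gene and per 1000000 counted fragments), Foxa3 was at 21.4, 17.1 and 18.1 in FOXA2f/f and at 19.7, 20.7 and 25.5 in FOXA2H-KO. Foxa1 was at 4.71, 5.59 and 4.47 in FOXA2f/f and at 6.19, 5.49 and 6.17 in FOXA2H-KO. Foxa2 was at 4.52, 3.07 and 4.77 in FOXA2f/f and at 0.303, 0.203 and 0.420 in FOXA2H-KO. Foxa3 was thus the highest of the 3 in each of the 6 libraries, at between 3.06 and 4.55 times Foxa1. Foxa1 and Foxa2 did not differ beyond their spread in FOXA2f/f hepatocytes, where the ratio of Foxa2 to Foxa1 was 0.961, 0.549 and 1.07, and in FOXA2H-KO hepatocytes Foxa2 was the lowest, at 0.0489, 0.0370 and 0.0681 of Foxa1.

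The gene length behind the deposited values changed this comparison. The length implied by dividing counts by FPKM was 3820 bases for Foxa2, which is the sum of all distinct exons annotated for the gene in GENCODE M21, where overlapping exons of alternative transcripts count more than once. The longest coding transcript of Foxa2 is 2128 bases and its merged exons cover 2370 bases, so the deposited Foxa2 FPKM is 55.7% of one made with the coding transcript. For Foxa1 the implied length was 3188 bases against a transcript of 3191 bases, and for Foxa3 both were 2037 bases. The distinct exons of Foxa1 sum to 3605 bases, so its implied length was not that sum, unlike that of Foxa2. Among 13246 tested coding genes, 68.6% had an implied length within 1% of that sum of distinct exons and 14.5% within 1% of the longest coding transcript. With coding transcript lengths for all 3 genes, an alternative chosen after the data were seen, the ratio of Foxa2 to Foxa1 in FOXA2f/f became 1.73, 0.986 and 1.92. The order of these 2 genes was therefore not fixed by the data, whereas Foxa3 stayed the highest in all 6 libraries.

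Shares of the summed Foxa level need no scaling between libraries. By deposited FPKM, Foxa2 made up 14.7%, 11.9% and 17.4% of the sum in FOXA2f/f and 1.15%, 0.768% and 1.31% in FOXA2H-KO replicates 1, 2 and 4. Foxa1 made up 15.4%, 21.7% and 16.4% in FOXA2f/f and 23.6%, 20.8% and 19.3% in FOXA2H-KO. Foxa3 made up 69.9%, 66.4% and 66.2% in FOXA2f/f and 75.2%, 78.5% and 79.4% in FOXA2H-KO. The mean share of Foxa2 was 14.7% ± 2.77 in FOXA2f/f and 1.08% ± 0.279 in FOXA2H-KO (SD, n = 3 each), and with coding transcript lengths it was 23.6% ± 3.98 and 1.92% ± 0.494. A rise in the share of Foxa3 follows from the loss of Foxa2 from the sum, so the balance of the 2 paralogs was also taken without it. Foxa3 was 82.0%, 75.4% and 80.2% of Foxa1 plus Foxa3 in FOXA2f/f and 76.1%, 79.1% and 80.5% in FOXA2H-KO. The groups overlapped, and their means of 79.2% ± 3.42 and 78.6% ± 2.23 differed by -0.62 percentage points, which is less than the SD of either group.

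**Figure D3:**
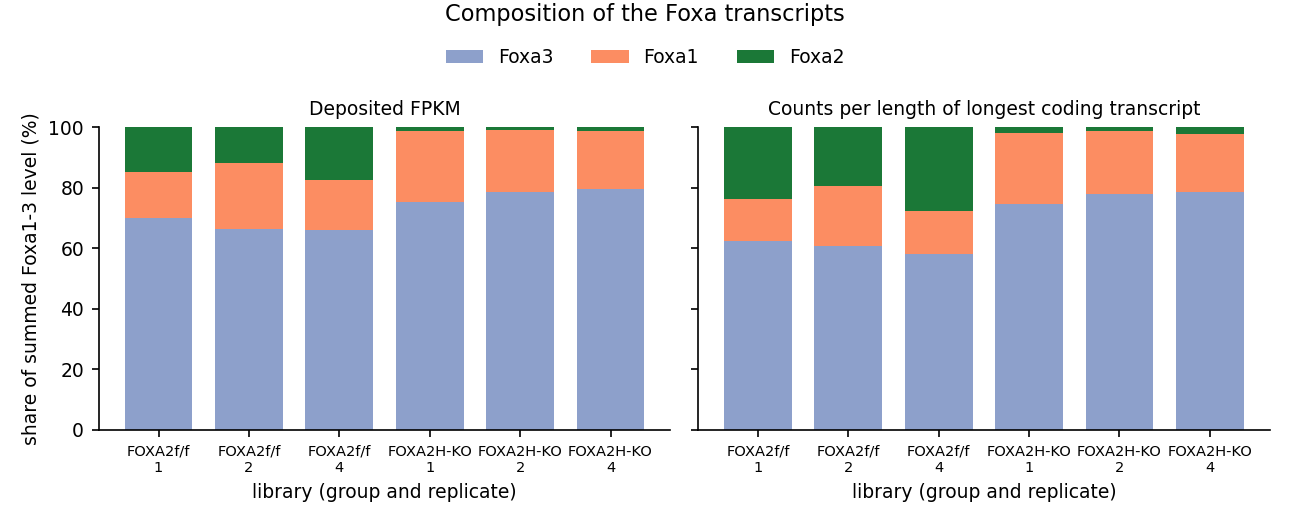
Shares (y axis, percent) of Foxa3 (blue), Foxa1 (orange) and Foxa2 (green) in the summed level of the 3 genes in each library, by deposited FPKM on the left and by counts per length of the longest coding transcript on the right. Foxa2 takes 11.9% to 17.4% in FOXA2f/f and 0.768% to 1.31% in FOXA2H-KO on the left, and 19.5% to 27.5% and 1.37% to 2.33% on the right.

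The summed level of the 3 genes, in FPKM scaled by TMM, was 33.7, 29.6 and 24.6 in FOXA2f/f and 23.4, 26.0 and 32.3 in FOXA2H-KO replicates 1, 2 and 4. The groups overlapped, with means of 29.3 ± 4.55 and 27.2 ± 4.61 (SD, n = 3 each), and the FOXA2H-KO mean was 92.8% of the FOXA2f/f mean. It was 101% with library size alone and 100.8% relative to the hepatocyte markers. With the deposited lengths, whether the total was lower thus depended on the scaling. Without Foxa2, the sum of Foxa1 and Foxa3 was 28.7, 26.1 and 20.3 in FOXA2f/f and 23.1, 25.8 and 31.9 in FOXA2H-KO. The Foxa2 lost was 3.97 FPKM, or 15.8% of the summed paralogs in FOXA2f/f, while the mean of the summed paralogs was higher by 1.87 FPKM in FOXA2H-KO, less than the SD of either group (4.30 and 4.52). With library size alone the difference was 4.14 FPKM, larger than the SD of either group (2.02 and 3.22), or 109% of the 3.81 FPKM of Foxa2 lost on that scale. With coding transcript lengths and TMM, the loss was 7.12, or 28.4% of the summed paralogs, and the total was 83.9% of FOXA2f/f. With coding transcript lengths and library size alone, the paralog difference was 60.5% of a loss of 6.84, and the total was 91.3%. A rise of 15.8% or 28.4% in both paralogs alike lies below the upper limits of the intervals of Foxa1 (49.6%) and Foxa3 (45.6%). A shared rise of a size that would offset the loss could thus not be told from no change with 3 libraries per group. These limits are for each gene with TMM, and the sum of the paralogs received no interval.

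Among all forkhead genes, Foxa3 had the highest mean FPKM in both groups. By mean FPKM Foxa1 was the 6th of 44 forkhead genes in FOXA2f/f and the 5th in FOXA2H-KO, and Foxa2 was the 7th in FOXA2f/f and the 18th in FOXA2H-KO. The 3 Foxa genes held 38.0% of the summed forkhead FPKM in FOXA2f/f and 36.1% in FOXA2H-KO. These ranks rest on the deposited lengths. With the longest coding transcript of every forkhead gene as length, an alternative chosen after the data were seen, Foxa2 was the 3rd in FOXA2f/f (7.39 ± 1.65 against 8.98 ± 3.44 for Foxo3 above it and 6.42 ± 0.285 for Foxp4 below it) and the 18th in FOXA2H-KO, Foxa1 was the 9th and the 5th, Foxa3 was the 1st in both groups, and the Foxa share was 33.5% and 29.5%. The 4 highest of the other 41 forkhead genes were Foxq1 (7.74 ± 2.08 against 7.41 ± 1.55 FPKM, FOXA2f/f against FOXA2H-KO), Foxo3 (5.49 ± 2.1 against 6.81 ± 0.179), Foxo1 (4.93 ± 1.08 against 6.99 ± 1.23) and Foxk2 (4.98 ± 1.29 against 4.60 ± 0.329, SD, n = 3 each). Foxo1 and Foxo3 encode factors that insulin signalling excludes from the nucleus. In FOXA2f/f, Foxa1 differed from its neighbours Foxo1 and Foxa2 in this order, and Foxa2 from Foxo4 (4.01 ± 0.855), by less than the larger SD of each pair. In FOXA2H-KO, Foxa1 (5.95 ± 0.400) lay further than that from Foxo3 and Foxo4 (4.83 ± 0.124), and Foxa2 (0.309 ± 0.109) lay within it of Foxs1 and Foxj1. Of the other forkhead genes, 28 had a count in some library. The edgeR fit tested 17 of them and called 0, and DESeq2 tested 28 and called 0. Foxp4 (log2 fold change -0.39, SE 0.16) was the 1 with an unadjusted p under 0.05 (5.17% of all genes). The groups did not overlap in it, with lower levels in FOXA2H-KO (5.96% of all genes). The next by p were Foxo1 (0.40, SE 0.21), Foxj1 (0.78, SE 0.49) and Foxk1 (-0.19, SE 0.13). The median log2 fold change of the 17 was -0.01, the same to 2 decimals as over all genes tested. Over all genes tested, edgeR called 0.00694%, which was Foxa2 alone, and DESeq2 called 0.333%. A list without Foxa2 therefore had 0 genes called by edgeR whatever its members.

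**Figure D4:**
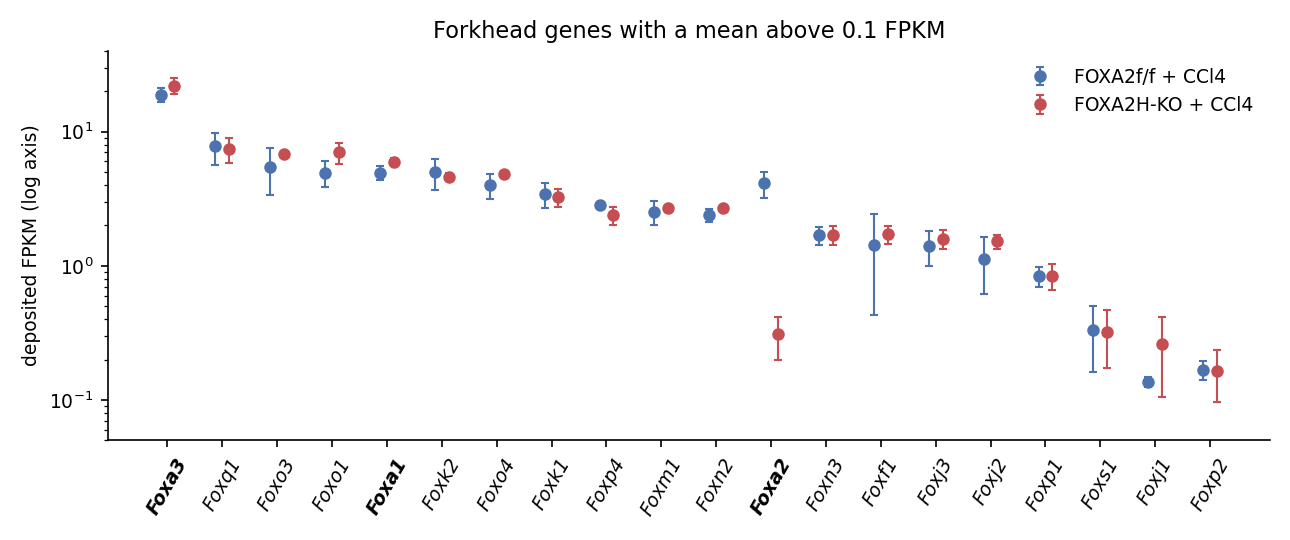
Deposited FPKM (log axis) of the forkhead genes with a mean above 0.1 FPKM, ordered by the mean over all 6 libraries. Points are group means of FOXA2f/f (blue) and FOXA2H-KO (red), bars ± 1 SD over 3 libraries. Foxa3 is the highest and Foxa2 is the gene whose group means are the farthest apart, at 4.12 and 0.309 FPKM.

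Transcription factors that share enhancers with FOXA proteins in hepatocytes were listed next, and of 22 tested 0 were called, by edgeR or by DESeq2. The shares called over all genes were 0.00694% (Foxa2 alone) by edgeR and 0.333% by DESeq2. The 4 highest were Hnf4a, a nuclear receptor central to hepatocyte identity (65.4 ± 3.49 against 68.2 ± 4.88 FPKM), Rxra, the partner of many nuclear receptors (41.0 ± 4.29 against 44.3 ± 3.02), Cebpa (39.9 ± 8.94 against 43.6 ± 3.79) and Cebpb (33.9 ± 9.73 against 46.6 ± 12.8, SD, n = 3 each). Their log2 fold changes were -0.06, -0.01, -0.00466 and 0.35. An unadjusted p under 0.05 was found for 4 of the 22 (5.17% of all genes), of which 3 were higher in FOXA2H-KO and 1 was lower. They were Hhex, a homeobox factor of liver development (log2 fold change -0.59, SE 0.14, edgeR adjusted p = 0.613), Prox1, which restrains bile acid synthesis (0.98, SE 0.30, adjusted p = 0.771), Gata6 (0.52, SE 0.18, adjusted p = 0.836) and Nr1i2, the xenobiotic receptor PXR (0.36, SE 0.14, adjusted p = 0.941). The groups did not overlap in these 4 genes. Non-overlap was found in 4.54% of all genes for higher and in 5.96% for lower levels in FOXA2H-KO. The median log2 fold change of the list was 0.12 against -0.01 over all genes.

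Of 30 genes that general knowledge names as FOXA-regulated in liver, 28 were tested and 0 called by edgeR (0.00694% of all genes, Foxa2 alone). DESeq2 tested 29 of them and called 1, Afp, while it called 75 of 22551 genes in all (0.333%). The 4 highest were Alb, Apoa1, Ttr and Cps1, which encode albumin, an apolipoprotein, transthyretin and the first enzyme of the urea cycle. Their log2 fold changes were -0.12, -0.12, -0.12 and -0.12 with SE between 0.26 and 0.44. The 4 with the smallest p were Afp, the fetal serum protein alpha-fetoprotein (log2 fold change -1.89, SE 0.39, edgeR adjusted p = 0.579), Tdo2, which starts tryptophan breakdown (0.74, SE 0.19, adjusted p = 0.65), G6pc, the last step of glucose output (-1.20, SE 0.47, adjusted p = 0.918), and Proc, the anticoagulant protein C (-0.39, SE 0.17, adjusted p = 0.941). Of these, Afp, Tdo2 and Proc did not overlap between the groups and G6pc did. Of the 28 tested, 1 was without overlap and higher in FOXA2H-KO and 4 were without overlap and lower. Over all genes tested these shares were 4.54% and 5.96%. The log2 fold change was above 0 for 10 and below 0 for 18 of the 28 genes, and their median was -0.12 against -0.01 over all genes. The list shares 6 genes with the hepatocyte markers. Shbg, the sex hormone-binding globulin, had no count in any library.

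**Figure D5:**
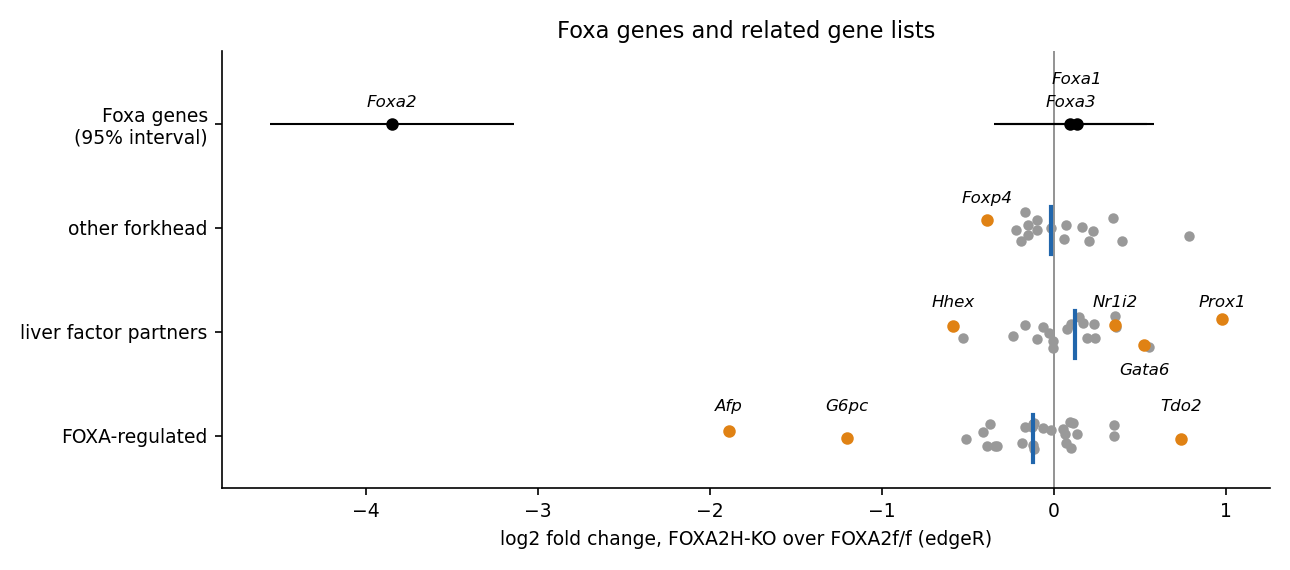
Log2 fold changes (x axis, edgeR) of the 3 Foxa genes with 95% intervals (top row) and of the tested genes in the lists of other forkhead genes (17), liver transcription factor partners (22) and FOXA-regulated genes (28). Orange points have an unadjusted p under 0.05 and are named, blue lines are list medians, and the vertical scatter within a row carries no value. Foxa2 lies at -3.85, left of every other gene shown.

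Whether the promoters of the paralogs carry a FOXA motif was also read from the reference. The letters TGTTTAC and TATTTAC, core forms of the forkhead site, were searched on both strands of the 250 bases upstream of each RefSeq transcript start (GRCm38.p6), and 5.76% of 32817 promoters held 1 or the other. The promoter of Foxa1 held 1 match to TGTTTAC, on the strand opposite to the gene and beginning 141 bases before the start. The promoters of Foxa2 (3 starts) and Foxa3 (1 start) held no match, which says only that these letters are not in those windows. The Foxa1 promoter at chr12:57546112-57546361 is shown 5′ to 3′ in the direction of transcription with the match in capitals, because Foxa1 was the 1 member with a match while its level did not pass the test in the libraries that lacked most Foxa2.
Foxa1 promoter: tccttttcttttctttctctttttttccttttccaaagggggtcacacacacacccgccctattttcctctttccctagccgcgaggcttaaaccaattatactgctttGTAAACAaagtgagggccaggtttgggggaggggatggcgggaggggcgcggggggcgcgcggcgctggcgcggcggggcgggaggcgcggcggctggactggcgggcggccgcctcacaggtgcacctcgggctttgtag
A match is a description of the letters and not a measured binding site.

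The nearest annotated genes were read beside the Foxa genes, since the floxed allele lies among them. The lincRNA 9030622O22Rik, on the same strand and 2673 bases downstream of Foxa2, had counts of 233, 97 and 176 in FOXA2f/f and 333, 248 and 215 in FOXA2H-KO replicates 1, 2 and 4. The groups overlapped in these raw counts, and the log2 fold change was 0.62 (SE 0.27, 95% interval -0.02 to 1.26, edgeR adjusted p = 0.941). Its value thus did not follow that of Foxa2. Sympk, 838 bases from Foxa3, and Irf2bp1 on its other side both had log2 fold changes of -0.15, and Ttc6, the neighbour of Foxa1, had -0.09, none of them called.

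The genes whose pattern over the 6 libraries was most like each Foxa gene were found by the root mean square difference of centred log2 CPM over 12881 genes. This measure also counts the size of a change, so a gene with the same pattern but a smaller change scores as distant. The genes most alike to Foxa2 were Enho, Ighg1 and Cacna1b, with differences of 1.01, 1.04 and 1.04. The variation of Foxa2 around its own mean was 1.93. Their log2 fold changes of -2.32, -2.89 and -1.90 were smaller in size than that of Foxa2. For Foxa1 they were Dennd4a, Tmem19 and Crnkl1 with differences of 0.0401, 0.0404 and 0.0413, and for Foxa3 they were Exosc9, Bora and Gpt2 with differences of 0.0536, 0.0578 and 0.0590, against 0.218 and 0.226 for the variation of Foxa1 and Foxa3 around their own means. Likeness over 6 libraries is a description, since the libraries share their depth and scaling.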

How the data were processed

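Hepatocyte RNA of 3 FOXA2f/f and 3 FOXA2H-KO libraries was analysed. For each library the authors deposited raw counts of fragments per Ensembl gene and FPKM values. The submitters' processing notes name CASAVA 1.8, TopHat2 2.1.0, HTSeq, edgeR and mm10, without roles, and the annotation is not given in the sources used here. The authors' FPKM follow from the counts, the total count and 1 length per gene. A table of the whole series with the same columns was not used. No 2 replicates were near-identical (chi-square of counts at least 35.9 times its degrees of freedom).

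Counts were fitted in R 4.3.3 with edgeR 4.0.16 (TMM, filterByExpr, quasi-likelihood test, no block) over 14417 genes, with Benjamini-Hochberg adjustment, and a gene was called at an adjusted p under 0.05 and at least 2-fold. In the main fit 745 genes had an unadjusted p under 0.05, and the biological coefficient of variation was 25.3%. The pipeline was tested on simulated data. Between 20983455 and 28327765 counts per library were available, and Poisson intervals cover counting error only. Alternatives were DESeq2 1.42.0, limma 3.58.1 (voom, or a trend on log2(FPKM + 1) for genes with a mean FPKM of at least 1), upper quartile and library size scaling, 2 other filters, a replicate block and each library left out. Transcript lengths, hepatocyte marker scaling and the cholangiocyte sum without Spp1 were added after the data were seen.

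The members and the gene lists, written by hand, were chosen with earlier results of these data known. Named genes are the members, for each list of related genes all called genes, the 4 highest by FPKM and the 4 smallest p, for each cell type list the 2 highest, for each member the 3 most alike genes (mean of at least 1 CPM, prior count 2), and the neighbours. Prom1 was named in addition to these. A gene of the partner list is not reported here. Shares and sums over members received no test. Promoters were from RefSeq, and Gm27420 and Gm37291, further neighbours, had no fit.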

Additional observations from a re-analysis of the deposited data

How the results depend on the processing

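The direction of the Foxa2 loss was the same under every alternative run, and its call was not. Foxa2 was called with DESeq2 (log2 fold change -3.86, adjusted p = 4.05e-29), upper quartile scaling and both other count filters. It was not called with library size alone (log2 fold change -3.74, adjusted p = 0.124), limma on log2(FPKM + 1) (-1.95, adjusted p = 0.0958, a scale that understates changes of low genes) or limma-voom (-3.90, adjusted p = 0.0543). Leaving out each library gave -4.17 to -3.63. The number of genes called was 1 with edgeR and TMM, 75 with DESeq2 and 2 without a filter beyond 1 count, where Vldlr joined Foxa2. It was 0 with library size alone, limma on log2(FPKM + 1) and limma-voom, where 723, 648 and 679 genes had an unadjusted p under 0.05, and 0 to 6 when libraries were left out, with 6 without FOXA2f/f replicate 2.

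With the replicate number as a block, 0 genes were called (682 at an unadjusted p under 0.05), and Foxa2 had a log2 fold change of -3.88 with an adjusted p of 0.0536. The labels do not say that a number marks a shared mouse, litter or day, and deviations of same-numbered libraries correlated at -0.13, 0.07 and -0.25 over 11818 genes, so the numbers were not taken to pair the libraries.

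Foxa1 and Foxa3 were not called under any alternative. The values that changed sign were those without FOXA2f/f replicate 4 (Foxa1 -0.022, Foxa3 -0.029) and without FOXA2H-KO replicate 4 (Foxa3 -0.056), within ranges over all libraries left out of -0.022 to 0.31 for Foxa1 and -0.056 to 0.25 for Foxa3. DESeq2 called 1 of the FOXA-regulated genes, Afp, and no other alternative called a gene of this list, and none called a liver transcription factor partner or another forkhead gene. The Foxa2 share in FOXA2f/f moved to 22.4% and in FOXA2H-KO to 1.79% when counts replaced FPKM, and to 23.6% and 1.92% with coding transcript lengths. Residual Foxa2 was between 5.50% and 8.13%, and the total between 84.1% and 100.3%, when libraries were left out.

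The remaining Foxa2 rested on 19 to 35 counts in each FOXA2H-KO library.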
